A study of Elaeis guineensis with 6 samples.

Results

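The change of the oil palm (Elaeis guineensis) inflorescence between leaf axils -27 and -20 and leaf axil +5 was described in a completely defoliated tree. Inflorescences of an oil palm sit in the leaf axils, so a higher axil number marks an older inflorescence. The stress tree had all leaves pruned except the unopened central one and was felled 45 days later, with 1 library at each of leaf axils -27, -20 and +5. The control tree was left untreated and gave 1 library at each of the same leaf axils, so 3 of the 6 libraries carry the results below and the other 3 serve for comparison. Both trees were 15 years old, and every library came from primordial inflorescence. Treatment and tree cannot be told apart, and at +5 the defoliated tree had no replicate.

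The measure was FPKM, the fragments of a gene scaled to the length of its transcript and to the size of the library. The change of a gene was taken as log2(FPKM + 1) at stress +5 minus the mean of stress -27 and stress -20. Gene records with an FPKM of 1 or more in at least 1 of the 3 stress libraries were kept, which left 19573 of 32099 records. Nearest to this limit, LOC105052455 was kept with 0.662, 0.883 and 1.001 FPKM at -27, -20 and +5, and LOC105058516 was left out with 0.869, 0.980 and 0.9999 FPKM. With a single library at +5 no test was made within the tree, and a record was counted as higher or lower at a difference of 2-fold or more. The difference between -20 and -27 of the same record served as the yardstick. Differences on this scale understate the change of genes with low values, and bulk FPKM cannot tell fewer cells of a type from less RNA per cell.

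The oil palm bears separate male and female inflorescences on the same tree, and removal of the leaves is known to favour male ones. In flowering plants, MADS-box proteins of the SQUAMOSA, GLOBOSA, DEFICIENS, AGAMOUS and SEPALLATA types set the identity of flowers and of their organs. KNOX homeobox proteins keep the meristem undetermined. As an inflorescence develops from a primordium, meristem genes usually give way to genes of floral organs.

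In the defoliated tree 987 records stood 2-fold or more above the early inflorescences at +5 (5.04% of those kept) and 597 stood as far below them (3.05%). The widest departures were those of LOC105038944, which went up, and LOC105037616, which went down, and among genes with a known role that of the floral gene SQUA1. Against each of the early libraries separately, 723 records were above by 2-fold (3.69%) and 425 below (2.17%). The change to +5 was larger than the gap between the early libraries: 8.09% of records were 2-fold or more apart between +5 and the early mean, against 1.12% between -20 and -27. At the 4-fold limit 129 records were higher and 79 lower at +5, while 9 differed by as much between -20 and -27. At the 8-fold limit there were 28 higher and 14 lower, and none between -20 and -27. The median absolute change to +5 was 0.31 on the log2 scale and the median absolute gap between -20 and -27 was 0.17. Across records the log2 values of +5 correlated with those of -20 at r = 0.913 and with those of -27 at r = 0.897, against r = 0.976 between -20 and -27 (Pearson, 19573 records that share libraries and are not independent). Of the 987 higher records, 757 changed by over 3 times their own early gap, and 14 changed by less than that gap. Of the 597 lower records the numbers were 432 and 10.

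**Figure D1:**
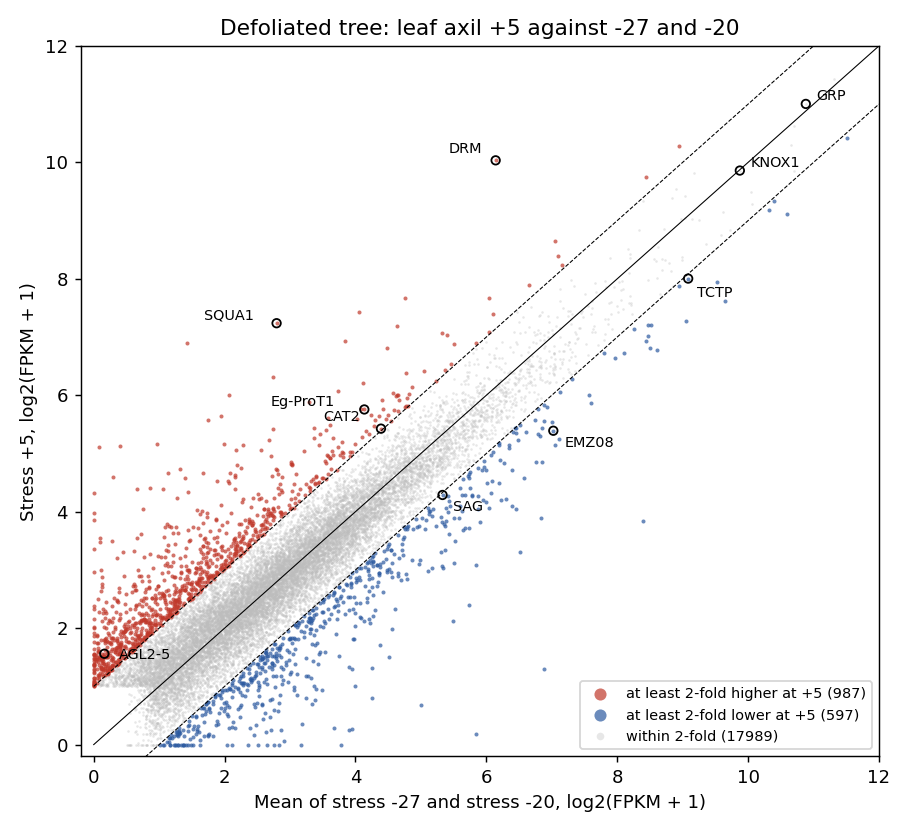
Each point is 1 of 19573 gene records of the defoliated tree, with the mean log2(FPKM + 1) of stress -27 and stress -20 on the horizontal axis and log2(FPKM + 1) of stress +5 on the vertical axis. Solid and dashed lines mark equality and a 2-fold difference, and SQUA1 and DRM lie far above the upper line while KNOX1 lies on the line of equality.

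**Figure D2:**
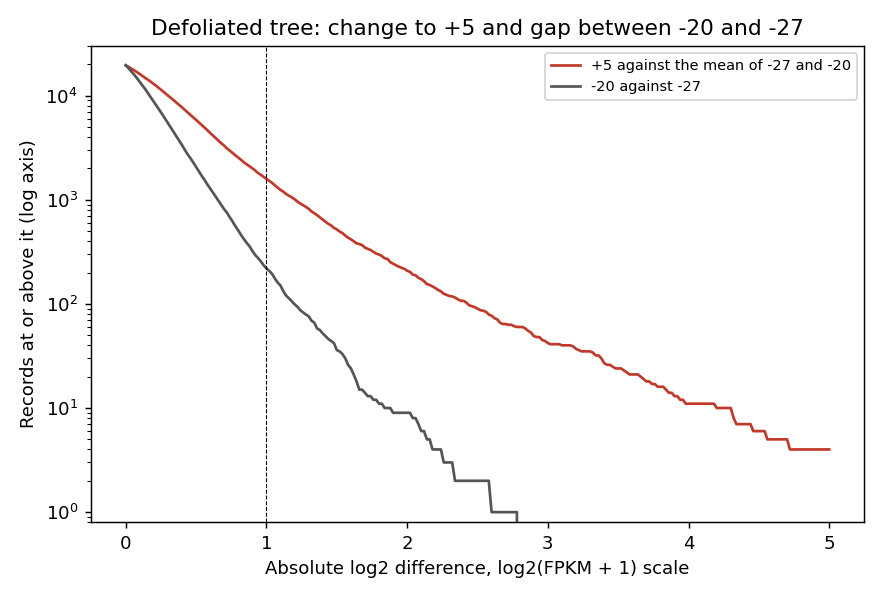
Number of records of the defoliated tree (log axis) at or above each absolute log2 difference, for +5 against the mean of -27 and -20 and for -20 against -27. At a log2 difference of 1 the curves stand at 1584 and 219 records.

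Higher and lower records differed in level. Those higher at +5 had a median of 1.22, 1.39 and 5.49 FPKM at -27, -20 and +5, so most were weak before. Those lower at +5 had a median of 10.2, 8.12 and 2.57 FPKM in the same order. Both sets were picked on these same values, so the rise and the fall of the medians follow from the choice. On the log2(FPKM + 1) scale a record under 1 FPKM in both early libraries can rise by 2-fold but cannot fall by 2-fold. Among records with a mean of at least 5 FPKM, 310 were higher and 358 lower, so the excess of higher records was not seen at this level. The limit of 1 FPKM could not alter the 987 and 597. On the log2(FPKM + 1) scale a record under 1 FPKM in all 3 libraries cannot differ by 2-fold. Of the records kept, 1041 reached 1 FPKM at +5 alone, and 377 of these were counted as higher. A further 963 were under 1 FPKM at +5, and 168 of them were counted as lower.

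Some records were near 0 FPKM on 1 side and at 1 FPKM or more on the other. At an FPKM of 0.1 or less in both early libraries and of 1 or more at +5 there were 73 records, of which 43 were listed at 0 in both early libraries. The 73 had a median of 1.77 FPKM at +5 and the highest was 19.0. They passed the limit of 1 FPKM through +5 alone. Sampling of few fragments was not tested as a source of such low values. The opposite was seen in 22 records, 18 of them listed at 0 at +5. In the control tree 35 of the 73 appearing records also reached 1 FPKM at +5, and 3 stayed at 0.1 FPKM or less in all control libraries. These shares were not taken over all kept records, so they have no baseline here.

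The library at -20 often lay on the way to +5. Of the higher records 58.0% had a lower value at -27 than at -20, against 44.4% of all kept records. Of the lower records 70.2% had a higher value at -27 than at -20, against 55.4% of all kept records. These shares are descriptions of 3 libraries of 1 tree.

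Genes with a symbol were then described by their role. Symbols came from the record names or from synonyms in a RefSeq gene table, and 45 of 55 such nuclear genes passed the limit of 1 FPKM. Of the 45, 7 (15.6%) were called higher and 3 (6.67%) lower, against 5.04% and 3.05% of all kept records, with a median change of -0.01, against 0.02 over all kept records. Of the 7, AGL2-5 and FB1 passed the limit of 1 FPKM through their +5 value alone. The list is short and was not tested, so the genes are given by their values.

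SQUA1, a SQUAMOSA-type MADS-box gene of the class that marks floral meristems, had 4.10, 8.43 and 149.9 FPKM at stress -27, -20 and +5 (log2 change 4.44, early libraries 0.89 apart). The +5 library stood far above both early ones. SQUA1 in the control tree had 5.59, 6.78 and 124.5 FPKM (log2 change 4.13), so it was high at +5 in both trees. AGL2-5, of the SEPALLATA type that acts with the other floral MADS-box proteins, had 0.252, 0 and 1.95 FPKM under stress (log2 change 1.40). It was listed at 0 in both early control libraries and reached 7.19 FPKM at control +5.

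The B-class genes GLO1 and GLO2, which in model plants specify petals and stamens, stayed under the 2-fold limit. GLO1 had 4.59, 6.31 and 9.97 FPKM at stress -27, -20 and +5 (log2 change 0.78). GLO2 had 2.15, 0.844 and 3.51 FPKM (log2 change 0.90, early libraries 0.77 apart). Both were highest at +5, but the margin of GLO2 was close to the gap between its early libraries. Without defoliation GLO1 had 6.84, 8.01 and 11.2 FPKM and GLO2 had 3.61, 4.86 and 7.83 FPKM.

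The 6 other floral MADS-box genes with a symbol did not reach 1 FPKM in any stress library. DEF1, the second B-class type, AG2 of the AGAMOUS type, AGL6-1, MADS1, MADS2 and AGL2-3 were listed at 0 in all 3 stress libraries. AGL6-1 was also listed at 0 in both early control libraries and had 2.21 FPKM at control +5 (difference between the trees -1.68). This difference was not past the criterion of an adjusted p under 0.01, which no record passed with 1 FPKM or more in any library. The difference rests on 1 library, and the early values of AGL6-1, all at 0, give no spread of their own. Of the 10 floral MADS-box genes, 4 were thus kept, 2 of them called higher at +5 and 0 lower, against 5.04% and 3.05% of all kept records. Of the 2, AGL2-5 passed the limit of 1 FPKM through its +5 value. As markers of the labelled tissue, SQUA1, GLO1 and GLO2 of the 10 were above 0 in every stress library, as was the meristem gene KNOX1. At stress -20, however, GLO2 had 0.844 FPKM, under the limit of 1 FPKM, and AGL2-5 was listed at 0.

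KNOX1, a knotted1-like homeobox gene of the meristem, had no rise at +5 like that of SQUA1. It had 961 FPKM at -27, 914 at -20 and 928 at +5 under stress (log2 change -0.01, early libraries 0.07 apart), so its level at +5 lay between the early ones. After quantile normalization its change was 0.43. In the control tree it had 847, 480 and 381 FPKM at -27, -20 and +5 (log2 change -0.74, and -0.82 from -27 to -20). The difference between the trees was 0.73 on the log2 scale (adjusted p = 0.455, limma with Benjamini-Hochberg adjustment). BBM, an AP2-type gene known from embryo formation in other plants, had 1.54, 1.98 and 2.74 FPKM under stress and 1.10, 0.591 and 5.66 FPKM in the control.

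**Figure D3:**
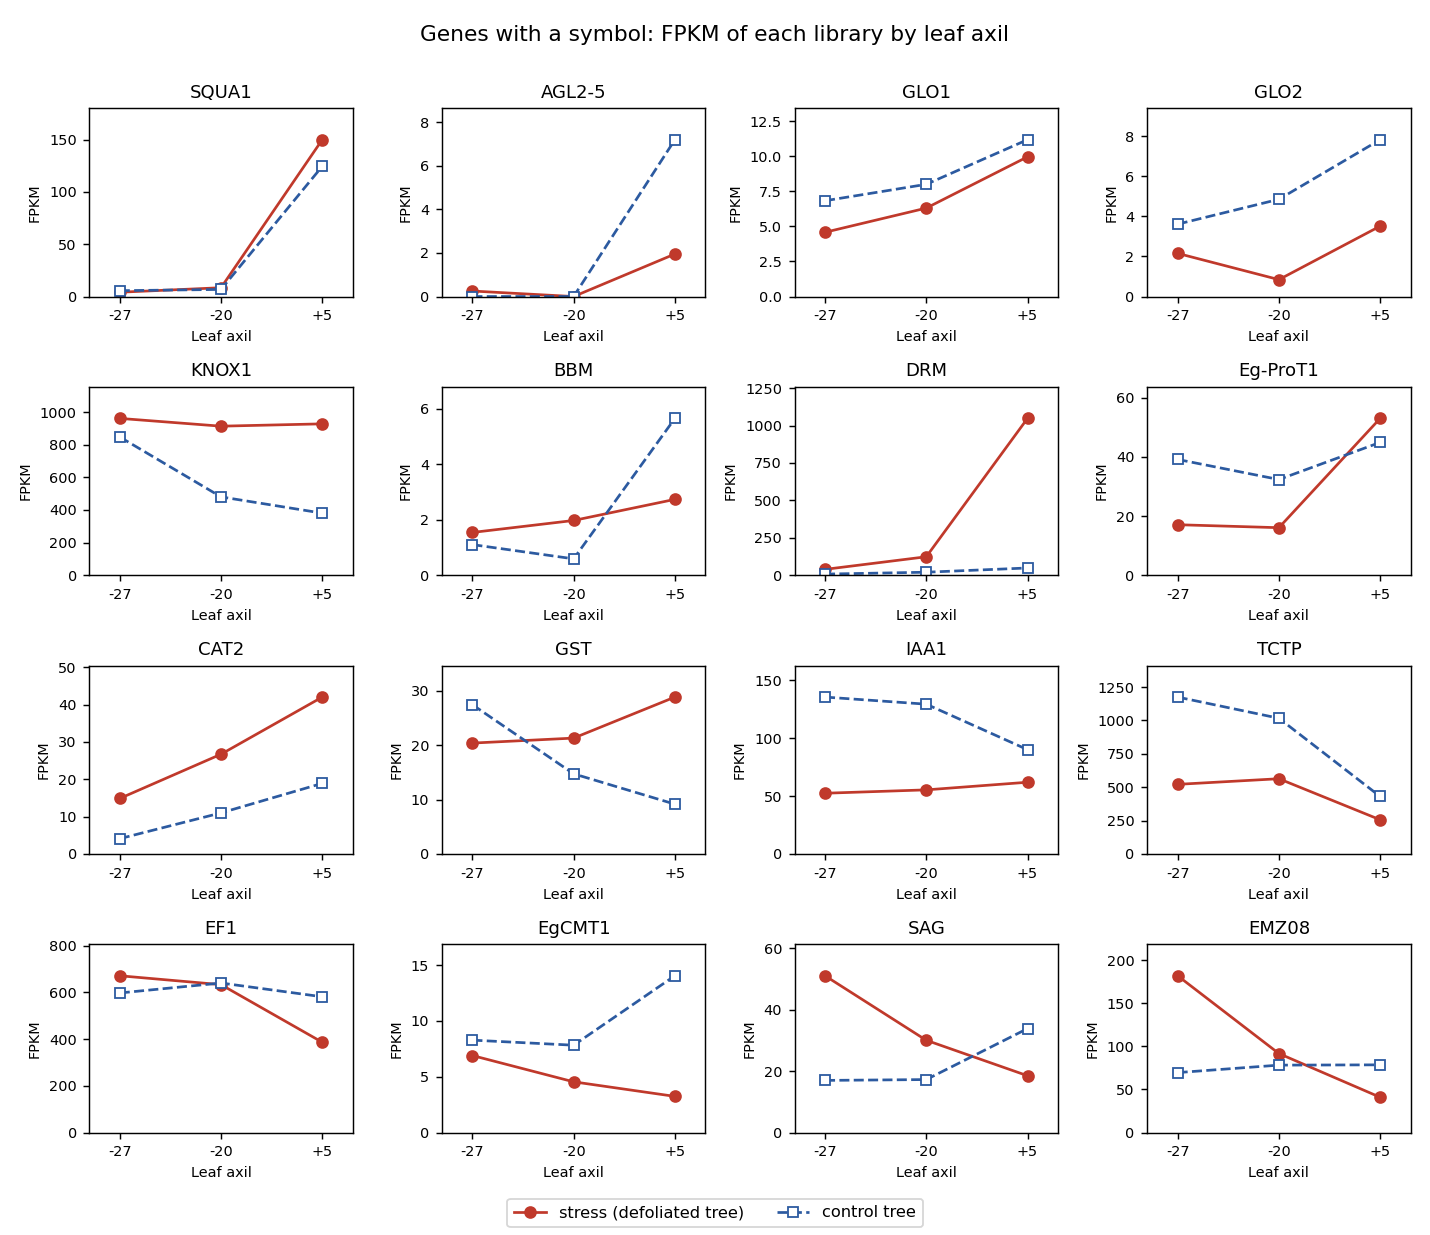
FPKM of 16 genes with a symbol at leaf axils -27, -20 and +5, 1 point per library, for the stress tree (filled circles) and the control tree (open squares), with a separate vertical axis from 0 for each gene. SQUA1 was near 150 FPKM at stress +5 and near 125 at control +5, while DRM reached 1048 FPKM at stress +5 alone.

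DRM had the second-largest rise of the genes with a symbol. It had 39.1, 123.3 and 1048 FPKM at stress -27, -20 and +5 (log2 change 3.89), and the early libraries were themselves 1.63 apart. The order was thus the same over all 3 leaf axils, and at +5 DRM ranked among the 7 records of highest FPKM. In the control tree it had 7.53, 20.1 and 48.4 FPKM (log2 change 1.88), in the same order and at a lower level. The difference between the trees was 2.01 (adjusted p = 0.356, limma with Benjamini-Hochberg adjustment). The symbol DRM is used in plants both for DNA methyltransferases and for dormancy-associated proteins, and the tables used here do not say which this record is.

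Hormone signalling genes with a symbol stayed within 2-fold. IAA1, of the Aux/IAA repressors of auxin response, had 52.4, 55.4 and 62.0 FPKM at stress -27, -20 and +5 (log2 change 0.20). AHP1, a phosphotransfer protein of cytokinin signalling, had 19.9, 21.3 and 16.2 FPKM (log2 change -0.33). GSK, a shaggy-like kinase, had 83.7, 82.6 and 62.4 FPKM (log2 change -0.41). None of the 3 reached the 2-fold limit, although all 3 had their +5 value outside the range of the early libraries.

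Genes of redox metabolism differed in direction. CAT2, a catalase, had 14.9, 26.7 and 42.0 FPKM at stress -27, -20 and +5 (log2 change 1.04, early libraries 0.81 apart), and without the -27 library its change was 0.63. GST, a glutathione S-transferase, had 20.4, 21.3 and 28.8 FPKM (log2 change 0.45). MnSOD, the mitochondrial superoxide dismutase, had 17.5, 14.9 and 9.01 FPKM (log2 change -0.78). Of the 3 genes, 1 was thus called higher and 0 lower, against 5.04% and 3.05% of all kept records. In the control tree the log2 change was 1.35 for CAT2, -1.06 for GST and -0.34 for MnSOD.

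Genes of translation and growth had their lowest stress values at +5. The growth-related TCTP had 521, 563 and 256 FPKM at stress -27, -20 and +5 (log2 change -1.08), the 1 gene of 6 past the 2-fold limit, against 3.05% of all kept records that were lower. The elongation factor gene EF1 had 671, 633 and 386 FPKM (log2 change -0.75) and EF1B had 439, 593 and 331 FPKM (log2 change -0.62). The ribosomal protein genes RPL27 and RPL21 had changes of -0.41 and -0.51, and the actin gene ACT1 of -0.40. Over the 6 genes the median change was -0.57. After quantile normalization the change was -0.76 for TCTP, -0.48 for EF1, -0.27 for EF1B and 0.01 for ACT1, so for ACT1 the direction was lost and TCTP was no longer past the 2-fold limit. The FPKM values of all records summed to 259063 at stress -27, 253872 at -20 and 238672 at +5, and their part in these lower values was not tested. In the control tree TCTP had 1175, 1016 and 430 FPKM (log2 change -1.34). There 2 of the 6 genes, TCTP and ACT1 (log2 change -1.09), were at least 2-fold lower at +5, against 4.22% of all kept records. The median change of the 6 in the control was -0.23.

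The DNA methyltransferase genes were below their early values in the defoliated tree. EgMET1, of the maintenance type, had 3.99, 3.28 and 2.08 FPKM at stress -27, -20 and +5 (log2 change -0.58). EgCMT1, a chromomethylase, had 6.90, 4.55 and 3.24 FPKM (log2 change -0.64), and EgDRM1, of the de novo type, had 17.7, 18.7 and 14.2 FPKM (log2 change -0.34). None of the 3 reached the 2-fold limit. The control values were 4.06, 6.01 and 8.34 FPKM for EgMET1 and 8.28, 7.83 and 14.0 FPKM for EgCMT1, highest at +5. EgDRM1 had 17.6, 19.5 and 13.5 FPKM in the control (log2 change -0.43), lowest at +5 as in the defoliated tree. The difference between the trees was -1.23 for EgMET1 (adjusted p = 0.141, limma with Benjamini-Hochberg adjustment) and -1.38 for EgCMT1 (adjusted p = 0.109, limma).

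Among the remaining symbols, Eg-ProT1, a proline transporter gene, had 17.1, 16.1 and 53.0 FPKM at stress -27, -20 and +5 (log2 change 1.62, early libraries 0.08 apart). Its value at +5 was thus well outside the early range. Its control values were 39.2, 32.4 and 44.9 FPKM, and the difference between the trees was 1.29 (adjusted p = 0.0616, limma with Benjamini-Hochberg adjustment). The aquaporin gene AQP had 136.4, 151.5 and 180.8 FPKM under stress (log2 change 0.33). The genes FB1 and M39A, for which no role is given here, were also higher by 2-fold. FB1 had 0.661, 0.825 and 3.33 FPKM under stress, so it passed the limit of 1 FPKM through its +5 value. M39A had 10.7, 14.9 and 30.6 FPKM, and without the -27 library the change of M39A was 0.99. In the control FB1 had 17.4, 16.8 and 40.0 FPKM (log2 change 1.18). M39A had 21.1, 21.0 and 126.8 FPKM there (log2 change 2.53). SAG, a symbol given to senescence-associated genes, had 51.1, 30.1 and 18.5 FPKM under stress (log2 change -1.04), and without the -27 library its change was -0.67. EMZ08 had 181.8, 91.6 and 41.0 FPKM under stress (log2 change -1.63). SAG and EMZ08 were lower at -20 than at -27 and lower again at +5. The other symbols not named so far had changes between -0.76 for HCS and 0.66 for NTF, and CHI2, PG4, LIP1 and dxs were under 1 FPKM in every stress library.

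Plastid genes of photosynthesis were looked at as possible markers of green leaf. Of 45 plastid genes for photosystems, cytochrome, Rubisco, NADH dehydrogenase and ATP synthase, 4 passed the limit of 1 FPKM, and their summed FPKM was 7.34, 9.02 and 8.71 at stress -27, -20 and +5. The Rubisco gene rbcL was listed at 0, 0.101 and 0 FPKM, and the photosystem genes psbA and psaA were at 0 in both early stress libraries, with 0.127 FPKM for psbA and 0 for psaA at +5. Nuclear genes of green leaf were not identified here. The series holds no leaf library, so whether these plastid values would be higher with green leaf present was not tested. None of the 4 kept genes differed by 2-fold between +5 and the early libraries.

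The largest changes were ranked among records that were 2-fold from each early library and reached 10 FPKM under stress. Most of these are given here by an identifier alone, since product names were not used, and the RefSeq table lists them as protein-coding. LOC105038944 had 2.55, 1.01 and 118.1 FPKM at stress -27, -20 and +5 (log2 change 5.48) and 0.342, 1.03 and 169.9 FPKM in the control. LOC105052308 had 0, 0.121 and 33.6 FPKM under stress (log2 change 5.03) and 0.375, 0.371 and 9.15 FPKM in the control. LOC105041257 had 0, 0.752 and 33.8 FPKM under stress and was listed at 0 in all 3 control libraries. LOC105041257 was thus seen in 1 tree of the 2, and treatment and tree cannot be told apart there.

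LOC105045991 and LOC105058905 were listed at 0 in both early stress libraries and had 19.0 and 14.7 FPKM at stress +5, so no fold is given. Both were higher at +5 in the control as well, with 6.94 and 4.22 FPKM. LOC105050253 had 0.0844, 0.390 and 23.3 FPKM under stress (log2 change 4.30), against 0.405, 0.793 and 192.1 FPKM in the control (log2 change 6.93). LOC105044027 had 0.680, 1.28 and 34.7 FPKM under stress (log2 change 4.19) and 5.55, 5.92 and 112.0 FPKM in the control (log2 change 4.07). LOC105055190 had 8.08, 0.921 and 63.0 FPKM under stress, with early libraries 2.24 apart, so its change of 3.94 rests on early values that lie far from each other. Together with SQUA1 and DRM these 8 made up the 10 largest rises, and 9 of the 10 were also higher by 2-fold at +5 in the control tree. The share higher in the control was 44.1% among all records higher under stress and 7.47% among all kept records.

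The largest fall was that of LOC105037616, with 51.2, 61.9 and 0.135 FPKM at stress -27, -20 and +5 (log2 change -5.66). Its control values were 0.146, 0.818 and 0 FPKM, so it was high in the early libraries of the defoliated tree and under 1 FPKM throughout the control. LOC105047203 had the same pattern at a lower level, with 15.7, 12.3 and 0.193 FPKM under stress and 0.218, 0.213 and 0 FPKM in the control. LOC105047088 had 129.1, 105.8 and 1.47 FPKM under stress (log2 change -5.58) and 9.45, 65.1 and 0 FPKM in the control. LOC105057829 was among the most abundant early genes, with 348, 325 and 13.4 FPKM under stress (log2 change -4.56) and 260.2, 245 and 104.2 FPKM in the control (log2 change -1.27). LOC105033630 was low at +5 in both trees, with 33.3, 28.8 and 0.607 FPKM under stress and 36.5, 35 and 0 FPKM in the control.

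LOC105056216 had 29.5, 5.11 and 0 FPKM under stress, and its early libraries were 2.32 apart. The other 4 of the 10 largest falls were LOC105054837, LOC105045670, LOC105050042 and LOC105047025, with changes between -3.68 and -3.37, and all 4 were also at least 2-fold lower at +5 in the control tree. Of the 10 largest falls, 8 were at least 2-fold lower in the control. The share lower in the control was 39.9% among all records lower under stress and 4.22% among all kept records. The changes of LOC105037616 and LOC105047203 in the control were -0.53 and -0.28.

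**Figure D4:**
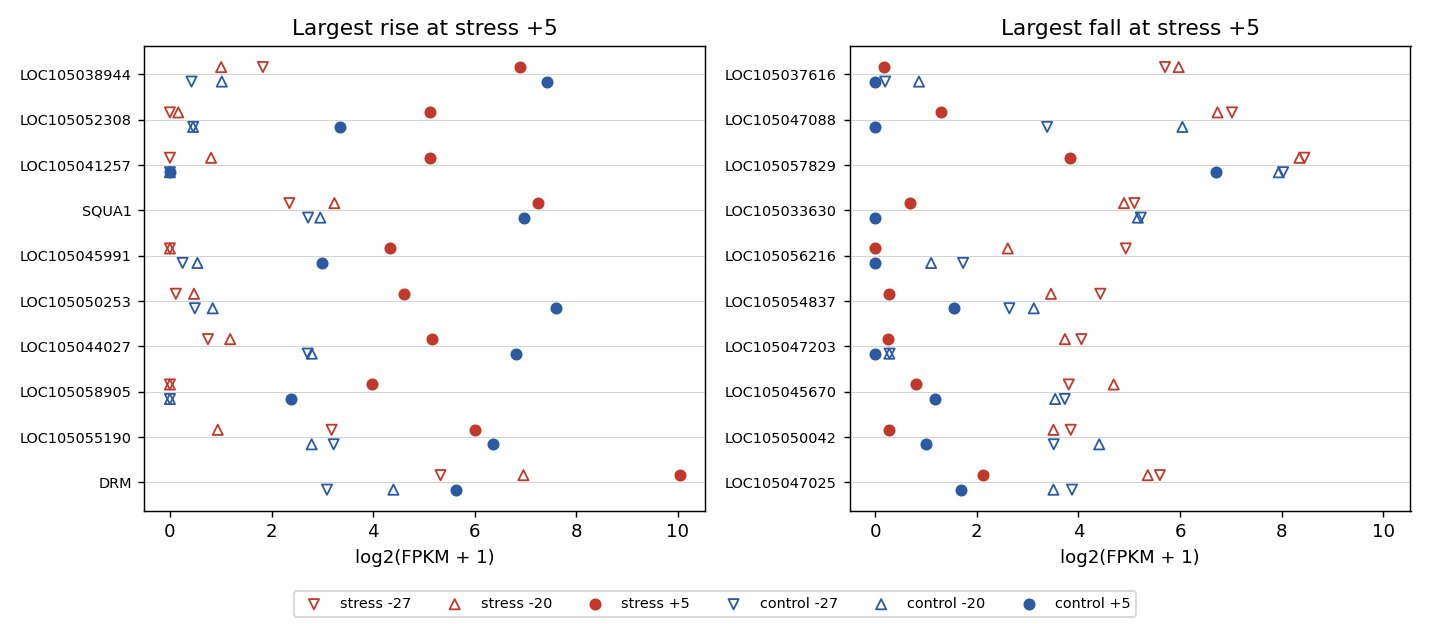
The 10 largest rises and 10 largest falls at stress +5, with log2(FPKM + 1) of each library on the horizontal axis, stress above control for each gene, open triangles for -27 and -20 and filled circles for +5. The filled circles lie apart from the open triangles in the defoliated tree for all 20 records, and LOC105041257 is at 0 in all 3 control libraries.

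The most abundant records were compared as well. The 5 with the highest FPKM at stress +5 were LOC105056944, the glycine-rich protein gene GRP (LOC105058161), LOC105053346, LOC105044409 and CHAC1 (LOC105050890). LOC105056944 had 2279, 2811 and 2760 FPKM at stress -27, -20 and +5, and GRP had 1752, 2031 and 2053 FPKM. LOC105053346 and CHAC1 had changes of -0.06 and -0.36. LOC105044409 was called lower, with 3496.5, 2420 and 1362 FPKM (log2 change -1.09, and -0.83 without the -27 library). Of the 100 records with the highest FPKM at +5, 75 were also among the 100 highest at -20 and 74 among those at -27, while -20 and -27 shared 93. Of the 100 highest by early mean, 21 were called lower at +5 and 2 higher. Of the 100 highest at +5, 8 were called lower and 11 higher. Over all kept records 3.05% were lower and 5.04% higher. Each list was picked on values that enter the change, which favours falls in the first and rises in the second. The 10 highest records held 6.7%, 7.0% and 5.89% of the summed FPKM at -27, -20 and +5.

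The share of higher records varied with the kind of gene. By the RefSeq table, 4.66% of 17119 kept protein-coding genes were higher at +5 and 3.16% lower. Of 499 long non-coding RNA genes 6.61% were higher and 1.00% lower, and of 423 pseudogenes 6.62% were higher and 1.18% lower. Of 1201 kept records not found in that table, 6.83% were higher and 3.16% lower. No test was made of these shares, and the kinds of gene were not compared for their level of expression. The place of the records in the genome was also looked at. Among 18279 kept records placed in the RefSeq gene order, 18.7% of the higher ones had a higher neighbour, against 9.6% of all, and 10.6% of the lower ones had a lower neighbour, against 6.02% of all. Neighbours were next to each other among kept records, so other genes can lie between them, and reads shared between neighbouring copies were not tested. There were 7 runs of 3 or more higher neighbours and 1 run of lower ones. The longest held 4 genes, in 1 case Eg-ProT1 with LOC114912829, LOC114912831 and LOC114912830 on chromosome 5.

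The change to +5 was then set beside that of the control tree, to see where development after defoliation departed from development without it. Of the 987 records higher under stress, 435 (44.1%) were at least 2-fold higher in the control as well, 521 were within 2-fold and 31 were at least 2-fold lower. Of the 597 lower under stress, 238 (39.9%) were also lower in the control, 331 were within 2-fold and 28 were higher. Over all kept records 7.47% were higher and 4.22% lower in the control tree, 1462 and 826 records, so the shared records made up 29.8% and 28.8% of these. The direction alone was the same in the control for 80.3% of the higher and 78.7% of the lower records. That share was not taken over all kept records, so these percentages have no baseline here. Across the 19573 records the changes of the 2 trees, which share no library, correlated at r = 0.432 (Pearson, a description over records that are not independent).

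**Figure D5:**
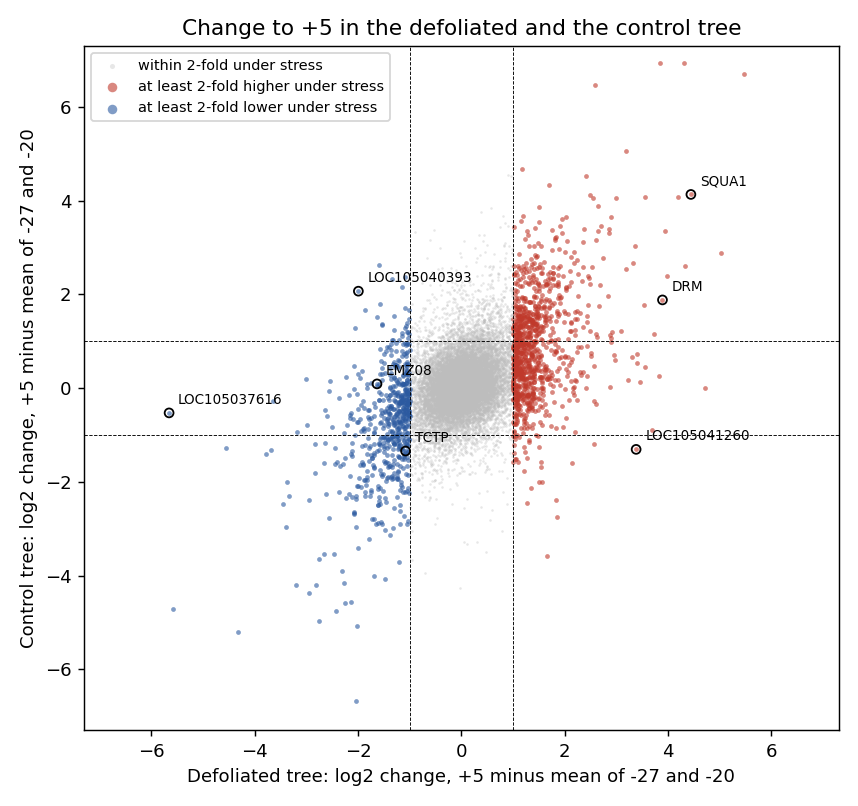
Log2 change of each of 19573 records to +5 in the defoliated tree (horizontal axis) and in the control tree (vertical axis), with dashed lines at a 2-fold difference. SQUA1 lies high in both trees, and LOC105041260 and LOC105040393 lie on opposite sides.

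The difference of the +5 change between the trees was tested with limma over 4 means of the 6 libraries, stress +5, stress early, control +5 and control early. Of 20926 records with an FPKM of 1 or more in any library, 0 (0%) were past an adjusted p under 0.01 with a difference of at least 2-fold, 5101 had an unadjusted p under 0.05, and 366 (1.75%) had an adjusted p under 0.05 with that difference. The spread in this test comes from -27 against -20 alone, with 2 residual degrees of freedom. With records of 1 FPKM or more in at least 3 libraries, the number past the criterion was 92.

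Some genes moved in opposite directions. In 12 records +5 was at least 2-fold above each early library under stress and at least 2-fold below each in the control, and in 11 the reverse held. LOC105041260 had 14.3, 16.9 and 171.8 FPKM at stress -27, -20 and +5 and 19.4, 28.7 and 8.94 FPKM in the control (difference 4.69, adjusted p = 0.0381, limma with Benjamini-Hochberg adjustment). LOC105034171 had 6.54, 17.0 and 41.3 FPKM under stress and 3.04, 10.1 and 0 FPKM in the control (adjusted p = 0.0980, limma). On the other side LOC105040393 had 120.1, 107.8 and 27.8 FPKM under stress and 113.3, 156.8 and 562 FPKM in the control (difference -4.06, adjusted p = 0.0381, limma), and LOC105033428 had 5.50, 2.29 and 0.522 FPKM under stress and 7.11, 9.81 and 57.2 FPKM in the control (adjusted p = 0.0548, limma). These 4 were chosen after their values were seen, as the 2 largest differences in each direction among the 23.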

How the data were processed

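Each of the 6 libraries held RNA of the inflorescence at 1 leaf axil of 1 tree. The authors checked reads without trimming them, aligned them with HISAT2 2.1.0 to the first oil palm genome assembly and quantified genes with StringTie 1.3.4 (versions also per the labels). The deposited FPKM values include records at 0. FPKM values carry no read totals. The study lists the reads of each library, but depth was not used here and no counting intervals are given. DESeq2, the authors' test, needs counts and was not run.

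Here log2(FPKM + 1) was computed. Records with 1 FPKM or more in at least 1 stress library were kept. Values within the defoliated tree have no test. The difference between trees was tested with limma 3.58.1 in R 4.3.3 across all genes (4 cell means, mean-variance trend, Benjamini-Hochberg adjustment), after a run on simulated data. The authors' thresholds were kept, an adjusted p under 0.01 and 2-fold. Counts and figures were made with pandas 2.3.3, numpy 2.4.6 and matplotlib 3.10.9 under Python 3.11.15.

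By symbol, 28655 records (89.3%) were found in RefSeq's genes of the later assembly EG11, which gave synonyms, gene types and gene order. Its coordinates are not printed. Proteins, promoters and product names were not used here, so planned lists by protein signature and promoter motifs were not made. Genes were named by these rules: every nuclear gene with a symbol or synonym (synonyms added after the data were seen, grouped by role), the 10 largest rises and falls that were 2-fold or more from each early library and reached 10 FPKM, and the 5 highest at stress +5. The members and lists were chosen with earlier results of these data known. Alternatives were another pseudocount (0.1), filters, quantile normalization, centring, other thresholds, a variance prior without a trend and leaving out each early library. Leaf axil as a block was added after the data were seen.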

Additional observations from a re-analysis of the deposited data

Results flagged for a closer look

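In 9 of the 45 kept genes with a symbol (20%), the +5 library lay above both early libraries in 1 tree and below both in the other, against 25.7% of all kept records. With 1 library per tree at +5 this pattern was looked up by direction. The limma test cannot single out any of the 9, since no record passed its criterion with 1 FPKM or more in any library. Below the early libraries under stress and above them in the control were EMZ08 (log2 change -1.63 under stress and 0.09 in the control), SAG (-1.04 and 0.94), EgCMT1 (-0.64 and 0.73), EgMET1 (-0.58 and 0.65), RPL21 (-0.51 and 0.22) and AHP1 (-0.33 and 0.25). Above them under stress and below them in the control were GST (0.45 and -1.06), IAA1 (0.20 and -0.55) and PEX13, a peroxisome biogenesis gene (0.072 and -0.16). The changes of AHP1, IAA1 and PEX13 were under 0.6 in both trees.

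Among genes given here by an identifier alone, the same held with at least 2-fold on both sides for LOC105041260 (3.38 under stress and -1.31 in the control), LOC105034171 (1.86 and -2.75), LOC105040393 (-1.99 and 2.07) and LOC105033428 (-1.60 and 2.64). The difference between the trees was 4.69 for LOC105041260 and -4.06 for LOC105040393. Again the limma test cannot single out any of the 4, since no record passed its criterion with that filter.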

How the results depend on the processing

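The labels give no replicate numbers that pair libraries. With the leaf axil as a block, fitted as stress minus control at each axil with 1 residual degree of freedom and chosen after seeing the data, limma called 0 records different between the trees, with 4733 at an unadjusted p under 0.05. The numbers of higher and lower records were 987 and 597. They were 1837 and 1120 with a pseudocount of 0.1, 310 and 358 at a mean FPKM of at least 5, and 129 and 79 at the 4-fold limit. Leaving out 1 early library gave 1013 to 1113 higher and 564 to 789 lower records. Centring gave 918 and 654, and quantile normalization 849 and 710. For the difference between trees, 0 records were past the criterion. The number was 92 with 1 FPKM or more in at least 3 of 6 libraries, 100 at a mean FPKM of at least 5, 11 after centring and 366 at an adjusted p under 0.05, and 0 with each early library left out, with a pseudocount of 0.1, after quantile normalization and without a trend. The cause was not tested. Among the named genes, 145 values past the 2-fold limit were recomputed under alternatives. None changed sign and 7 came under 2-fold, those of SAG, CAT2, M39A, TCTP and LOC105044409. The largest rises and falls among the named genes were chosen as 2-fold or more from each early library. For them, leaving out 1 early library or a smaller pseudocount could not bring the change under 2-fold, so their stability there was fixed by the choice. With 1 library at stress +5, the error of a change to +5 is not known.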

Other observations

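Plastid ribosomal protein genes had their highest summed FPKM of the stress libraries at +5. Their summed FPKM over 27 records was 76.1, 78.4 and 118.4 at stress -27, -20 and +5, and 126.7, 111.8 and 93.9 in the control. Of the 27 records 13 were kept, and none of them differed by 2-fold between stress +5 and the early libraries. The gene rps3 had 26.7, 27.1 and 38.0 FPKM under stress, and rpl22 had 19.97, 19.1 and 31.8 FPKM.

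Genes of fatty acid and lipid synthesis stayed within 2-fold in the defoliated tree. PTE, the thioesterase that releases palmitate, had 10.3, 10.8 and 16.9 FPKM at stress -27, -20 and +5 (log2 change 0.63). SACPD, a stearoyl-ACP desaturase, had 166.7, 157.7 and 134.8 FPKM (log2 change -0.26), and GPAT, a glycerol-3-phosphate acyltransferase, had 4.63, 6.51 and 4.93 FPKM (log2 change -0.13). None of the 3 reached the 2-fold limit.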
